A study of Auxenochlorella pyrenoidosa with 12 samples.

Results

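A group of 119 assembled transcripts of a green alga had a lower mean log2 level at each higher dose of an oxidant, starting from untreated cultures. The transcripts stood at a median of 39.7% of control at the highest dose. They were chosen by their measured levels, from 29140 contigs in the deposited table, of which 11520 reached 2 FPKM on average and could be chosen. FPKM stands for fragments per kilobase of contig, scaled to the fragments of the whole library. A contig was taken when its mean log2(scaled FPKM + 1) fell from control to 0.1, 0.2 and 0.5 EC50 in that order, by at least 0.8 in all and by at least 0.4 up to 0.2 EC50. Less than 0.5 of the whole fall had to lie between control and 0.1 EC50, and every 0.5 EC50 library had to lie below every control. All 12 libraries and every dose entered that choice, so the levels below describe how the contigs were chosen, and no comparison between doses is an independent test of a fall. The libraries came from whole cells of Auxenochlorella pyrenoidosa, also called Chlorella pyrenoidosa, a unicellular freshwater alga. Potassium peroxymonosulfate was given in a chronic exposure at 1.70 mg/L (0.1 EC50), 3.40 mg/L (0.2 EC50) or 8.49 mg/L (0.5 EC50), beside a control with 0 mg/L, and each of the 4 groups had 3 libraries. EC50 is the median effect concentration of the acute test of the same study. The labels give neither strain nor day of sampling for these libraries, and do not say whether replicates were cultured separately.

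Peroxymonosulfate is a strong oxidant used in disinfection and water treatment, and when activated it gives sulfate and hydroxyl radicals. Algal cells answer oxidants with enzymes that remove reactive oxygen species and with repair and turnover of proteins, while growth and photosynthesis often slow. A transcript level that falls in small steps over several doses is the pattern of a graded response, and it differs from a switch that needs a minimum dose. The table names contigs by assembly identifier and pairs none of them with a gene, so no function can be given for any of the 119 contigs, and no pathway could be counted. In RNA from whole cultures, fewer cells that hold a transcript and less of it per cell cannot be told apart.

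FPKM summed to 503295 to 561291 in a library. The number of reads behind a value is unknown. Each library was divided by a factor between 0.887 and 1.12, its median ratio to the geometric mean over 10427 contigs above 1 FPKM in every library. The scaling moved the median difference of all contigs at 0.5 EC50 against control from 0.14 to 0.02 log2 units. The 0.1 EC50 libraries stood apart from each other in the levels of the 119 contigs, given below, but not in their correlations outside them. Outside the 119 contigs, replicate 1 of 0.1 EC50 had its highest correlation with replicate 1 of 0.2 EC50 (Pearson's r of 0.976 over 11401 contigs, which share libraries and are not independent), against 0.953 and 0.958 with the other 0.1 EC50 libraries. With 0.2 EC50 replicates 2 and 3 it had 0.953 and 0.941. The library 0.2 EC50 replicate 1 had 0.941 and 0.956 with 0.1 EC50 replicates 2 and 3. With 0.2 EC50 replicates 2 and 3 that library had 0.946 each. The 0.1 EC50 replicates 2 and 3 had 0.961 with each other, and pairs of controls had 0.904 to 0.945. Each mean at 0.1 EC50 below joins libraries that differ in the 119 contigs. Whether the label or the culture differs, for the library labelled 0.1 EC50 replicate 1 or for 0.2 EC50 replicate 1, cannot be told apart from these files. At 0.1 EC50 replicates 2 and 3, at 0.2 EC50 replicate 2 and in the control replicate 2 had low values that shared fewer equal ratios with control replicate 1. The most frequent ratio, in bins of 0.01 log2 units, held 0.740% to 1.16% of their low values and 1.62% to 3.79% of those in the remaining 7 libraries. Without these 4 libraries the rule found 41 contigs, of which 16 were among the 119.

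The 119 contigs were of moderate abundance. Their mean over all libraries ran from 2.00 to 119 FPKM with a median of 9.31 FPKM, against a median of 7.56 FPKM over all 11520 contigs. In the controls they had a median of 14.3 FPKM, at 0.1 EC50 10.8, at 0.2 EC50 8.19 and at 0.5 EC50 5.66 FPKM. Summed over the group, the scaled level was 2729, 2712 and 2729 FPKM in the 3 controls. It was 1600.2, 2251 and 2893 FPKM in replicates 1, 2 and 3 of 0.1 EC50. At 0.2 EC50 the sums were 1685, 1516 and 1694 FPKM, and at 0.5 EC50 they were 976, 1180.5 and 1305 FPKM. The controls were nearly equal, the 0.2 and 0.5 EC50 libraries did not overlap with them or with each other, and the 0.1 EC50 libraries ran from the 0.2 EC50 level to above the controls.

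Relative to each contig's own control mean, the median over the 119 contigs was -0.02, 0.02 and -0.02 log2 units in the controls. At 0.1 EC50 it was -0.81, -0.29 and 0.11, at 0.2 EC50 -0.70, -0.84 and -0.57, and at 0.5 EC50 -1.36, -1.16 and -1.001 in replicates 1, 2 and 3. The same median over all 11520 contigs lay between -0.04 and 0.05 in every library, where the scaling sets it near 0. The plot of levels in each library shows these values.

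**Figure D1:**
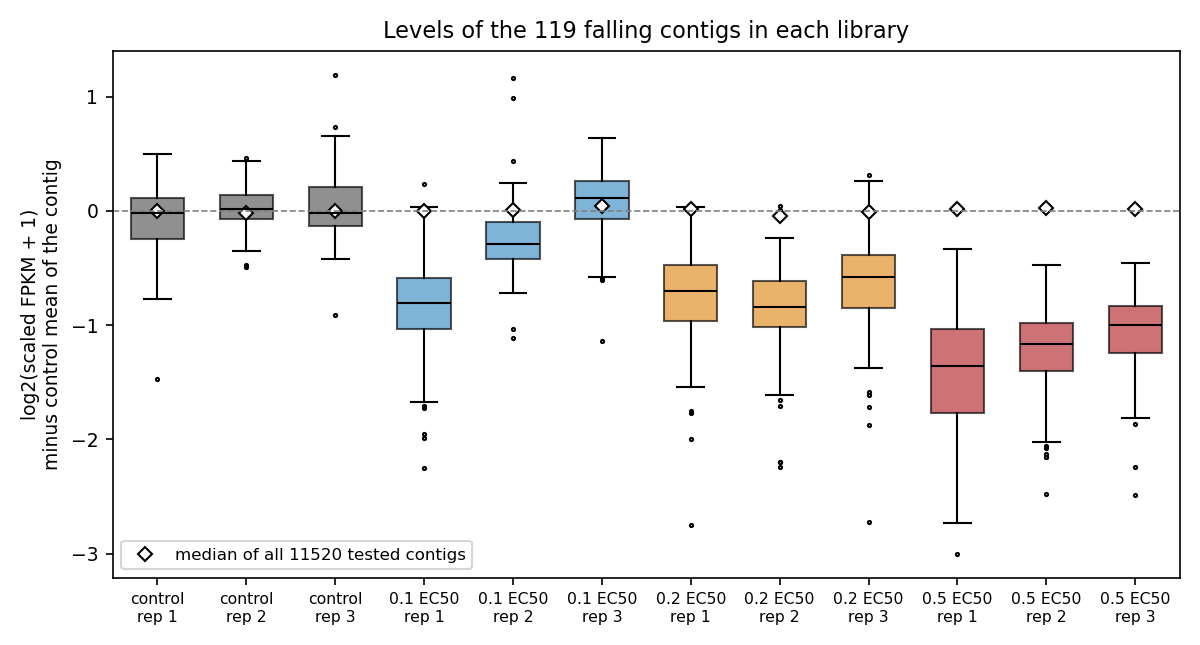
Log2(scaled FPKM + 1) of the 119 falling contigs in each of the 12 libraries, minus the control mean of the same contig. Boxes span the quartiles, the line is the median, whiskers reach 1.5 interquartile ranges and dots are contigs beyond them. White diamonds are the medians of all 11520 tested contigs, which stay between -0.04 and 0.05. The medians at 0.1 EC50 run from -0.81 to 0.11, while those at 0.2 EC50 stay between -0.84 and -0.57 and those at 0.5 EC50 between -1.36 and -1.001.

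The median difference, control minus dose, was 0.35 log2 units at 0.1 EC50, 0.69 at 0.2 EC50 and 1.15 at 0.5 EC50, where the range was 0.81 to 2.34. The order of these means was set by the rule. The first value was smaller than the SD of 0.42 log2 units between library medians at control and 0.1 EC50. Without the 4 libraries the differences were 0.80, 0.61 and 1.17 log2 units. Over all 11520 contigs the same medians were -0.02, 0.02 and -0.02. In scaled FPKM without a pseudocount, the contigs stood at medians of 79.5%, 58.1% and 39.7% of control. At 0.1 EC50 they ran from 56.9% to 105.9% of control, so the order of the log2 means did not hold in this measure for every contig. At 0.5 EC50 the lowest contig was at 7.04% and the highest at 56.7% of control. The difference at 0.5 EC50 was at least 1 log2 unit in 86 contigs, at least 1.5 in 22 and at least 2 in 7.

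Which step was the largest depended on the 0.1 EC50 libraries. With all libraries the last step was the largest for 67 contigs, the step from 0.1 to 0.2 EC50 for 38 and the step from control to 0.1 EC50 for 14, a number that the rule holds down. Without 0.1 EC50 replicate 1 these counts were 42, 73 and 4, and without replicate 3 they were 45, 11 and 63. They were 34, 3 and 82 without the 4 libraries named above, 47, 49 and 23 without 0.5 EC50 replicate 1, and 43, 27 and 49 as deposited. The median steps in order of dose were 0.35, 0.38 and 0.46 log2 units with all libraries, 0.09, 0.63 and 0.46 without 0.1 EC50 replicate 1, 0.56, 0.18 and 0.46 without replicate 3, and 0.80, -0.14 and 0.54 without the 4 libraries. The doses are not evenly spaced, and the median fall was 0.21 log2 units per mg/L up to 0.1 EC50, 0.22 between 0.1 and 0.2 EC50 and 0.09 between 0.2 and 0.5 EC50. Without 0.1 EC50 replicate 1 these were 0.05, 0.37 and 0.09 log2 units per mg/L, and without replicate 3 they were 0.33, 0.11 and 0.09. Without the 4 libraries they were 0.47, -0.08 and 0.11. Between 0.344% and 76.0% of the whole fall lay in the last step, so the group ran from contigs with nearly all of their difference at 0.2 EC50 to contigs with most of it above that dose.

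**Figure D2:**
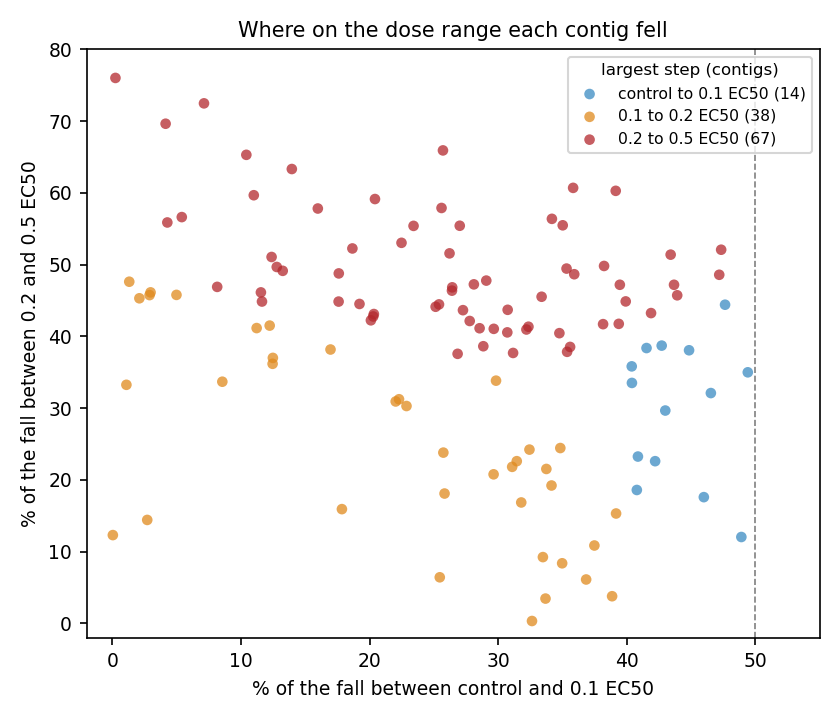
Each point is 1 of the 119 contigs. The horizontal axis is the percentage of its whole fall, in log2 units, that lay between control and 0.1 EC50, the vertical axis the percentage between 0.2 and 0.5 EC50, and the colour gives the largest step. The dashed line is the limit that the rule sets at 50% for the first step. The 67 contigs with the largest step at the end lie in the upper part, and those with the largest middle step run down to near 0% on the vertical axis.

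In a fit over all contigs, the number of the 119 called lower differed between doses, where the rule itself sets limits on the falls. By limma's moderated test with a Benjamini-Hochberg adjusted p under 0.05, 91 of the 119 contigs were called lower at 0.5 EC50 than in control, where 6.55% of all contigs were called lower. At 0.2 EC50 34 were called lower against 7.89% of all, and at 0.1 EC50 4 were, against 7.57%. All 34 contigs called at 0.2 EC50 were also called at 0.5 EC50, and 28 were called at no dose. Between 0.5 and 0.2 EC50 10 were called lower, against 3.86% of all, and between 0.2 and 0.1 EC50 0 were, against 0% of all. These counts describe contigs that the same libraries had picked, and nothing is read from them. Calls over all contigs moved with the libraries too. With 1 library left out, 259 to 850 of all contigs were called lower at 0.5 EC50, against 754 with all libraries. At 0.2 EC50 it was 531 to 966 against 909, at 0.1 EC50 502 to 916 against 872, and between 0.5 and 0.2 EC50 157 to 529 against 445. Among the 119 contigs the count at 0.5 EC50 was 47 and 57 without control replicate 2 or 3 and 56 and 50 without 0.5 EC50 replicate 1 or 2. The count at 0.2 EC50 was 20, 18 and 14 without control replicate 1, 2 or 3 and 21, 16 and 21 without 0.2 EC50 replicate 1, 2 or 3. That at 0.1 EC50 was 0, 2 and 1 without those controls and 0, 0 and 18 without 0.1 EC50 replicate 1, 2 or 3. Between 0.5 and 0.2 EC50 the count was 3, 6 and 5 without 0.2 EC50 replicate 1, 2 or 3, 3 and 2 without 0.5 EC50 replicate 2 or 3 and 16 without 0.1 EC50 replicate 1.

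Single libraries were ordered less cleanly than group means. The rule itself set all 0.5 EC50 libraries below all controls, a separation seen in 18.1% of all contigs. All 0.2 EC50 libraries lay below all controls for 96 of the 119 contigs (17.9% of all contigs) and all 0.5 EC50 libraries below all 0.2 EC50 libraries for 60 (15.8% of all). All 0.1 EC50 libraries lay below all controls for 15 (16.5% of all contigs), a count that the limit on the first step holds down. All 0.2 EC50 libraries lay below all 0.1 EC50 libraries for 20 (7.58% of all). No library overlapped at any of the 3 steps for 3 contigs, where 0.0434% of all contigs, 5 in number, showed this. The rule orders the group means and sets a fall of at least 0.4 up to 0.2 EC50. None of these counts is therefore independent of the choice of contigs.

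The overlap at 0.1 EC50 had a shared form. Replicate 1 was the lowest of the 0.1 EC50 libraries for 109 of the 119 contigs, against 36.1% of all contigs, and replicate 3 the highest for 102, against 33.8%. Replicate 1 lay below 2 and 2 below 3 for 98 contigs, against 20.1% of all. Replicate 1 was at least 0.5 log2 units below replicate 3 for 93 contigs, against 14.2% of all. All 3 libraries entered the rule through their mean, which it bounds on both sides, so these counts are not independent of the choice of contigs. The median difference from control at 0.1 EC50 was 0.35 log2 units with all libraries, 0.09 without replicate 1, 0.56 without replicate 3 and 0.80 when the 4 libraries named above were left out.

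Against the controls, replicate 1 of 0.1 EC50 lay below all 3 for 110 contigs (33.3% of all contigs), replicate 2 for 68 (33.5% of all) and replicate 3 for 20 (28.6% of all). Replicate 3 was above the control mean for 79 contigs, and replicate 1 was below the 0.2 EC50 mean for 76. Shares over all contigs were not set beside these counts, and nothing is read from them. Of the 119 contigs, 47 had 1 of the 3 libraries below all controls (20.9% of all contigs), 53 had 2 (12.5% of all) and 15 had all 3 (16.5% of all). The median SD between the 0.1 EC50 libraries was 0.51 log2 units in the 119 contigs and 0.19 over all contigs. In control, 0.2 and 0.5 EC50 the median SD of the group was 0.20, 0.23 and 0.28 log2 units, against 0.17, 0.18 and 0.18 over all.

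**Figure D3:**
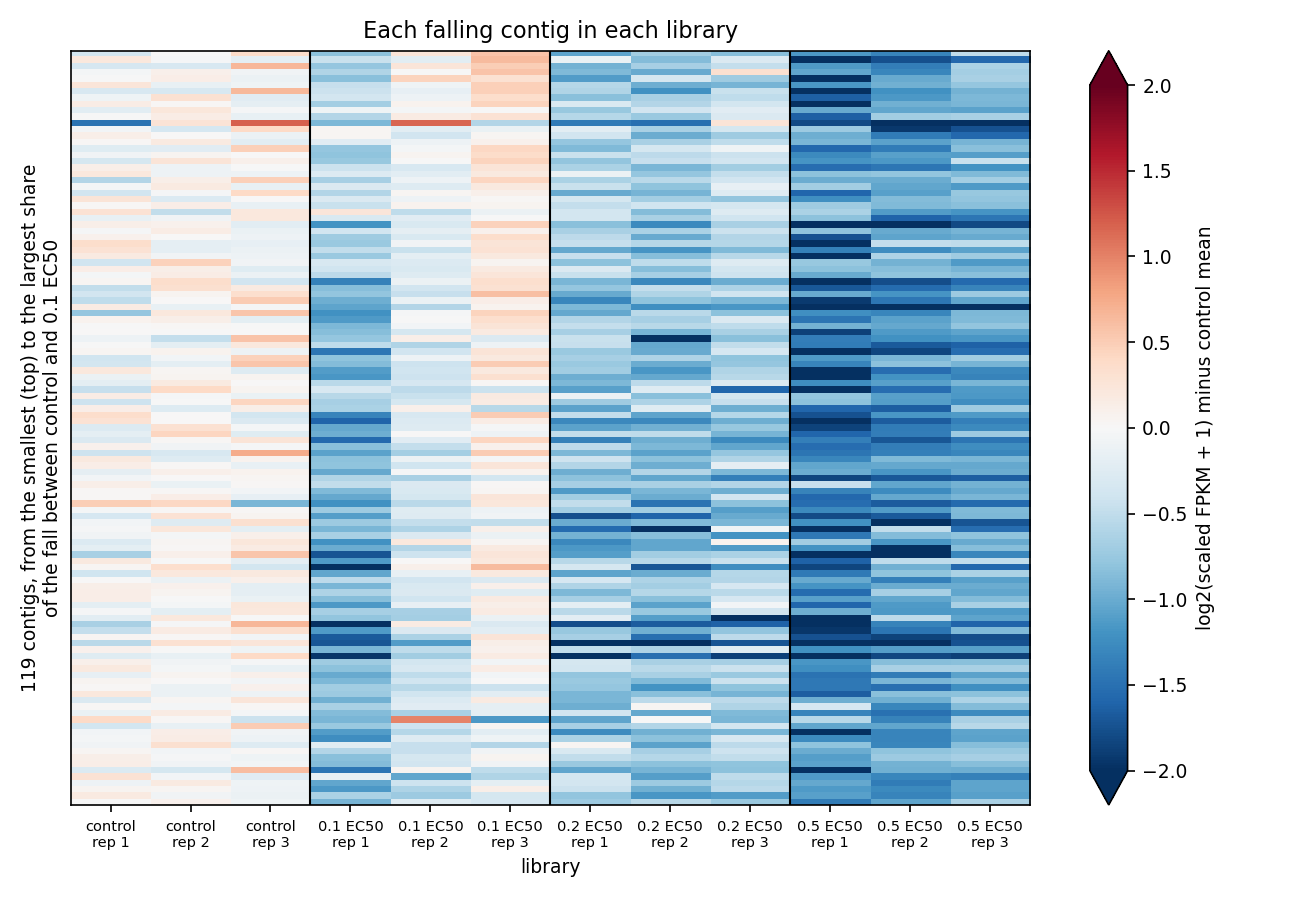
Each row is 1 of the 119 contigs and each column a library, with black lines between the groups. Colour is log2(scaled FPKM + 1) minus the control mean of the contig, from blue (lower) to red (higher), with the scale ending at 2 log2 units either way. Rows are ordered by the share of the fall between control and 0.1 EC50, smallest at the top. Replicate 1 of 0.1 EC50 is blue in nearly all rows, like the 0.2 EC50 libraries, while replicate 3 is near white or red in most rows.

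The same libraries were compared in other sets of contigs. Among 33 contigs that met every limit but had at least 0.5 of their fall before 0.1 EC50, the median difference from control was -0.95, -0.72 and -0.37 log2 units in 0.1 EC50 replicates 1, 2 and 3. Among 1201 other contigs at least 0.4 log2 units lower at 0.2 EC50 than control and without overlap, these medians were -0.64, -0.58 and -0.49, and replicate 1 was the lowest for 49.0%. The same rule mirrored found 96 contigs that rose with dose, and there the medians were 0.56, 0.27 and 0.26. In all 3 sets replicate 1 lay farthest from control. The difference between these sets and the 119 contigs was not tested, since the rule itself bounds the 0.1 EC50 mean of the group.

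Smaller shared orders stood at the other doses. Replicate 2 was the lowest 0.2 EC50 library for 63 of the 119 contigs, against 37.8% of all contigs. At 0.5 EC50 replicate 1 was the lowest for 74, against 41.1% of all, and replicate 3 the highest for 72, against 30.8% of all. Their part in the result was not tested.

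The mean order of 0.1 and 0.2 EC50 turned within the libraries that shared low-value steps. In these 8 libraries the mean level of the 119 contigs was 3.96 log2 units in 2 controls, 3.15 in the 1 library of 0.1 EC50, 3.28 in 2 libraries of 0.2 EC50 and 2.73 in 3 libraries of 0.5 EC50. The 0.1 EC50 library lay below the 0.2 EC50 mean for 79 contigs, and 35 showed the full order of doses. The 0.5 EC50 mean was the lowest of the groups for 105 contigs. In the 4 libraries left out there, control replicate 2 had a mean of 3.996 log2 units, 0.1 EC50 replicates 2 and 3 had 3.88 and 0.2 EC50 replicate 2 had 3.11. These means stood in the order of dose, with no 0.5 EC50 library among them, and 116 contigs were lower in the 0.2 EC50 library than in the mean at 0.1 EC50. The rule used all of these libraries, so the counts in both sets are not independent of the choice of contigs. Shares over all contigs were not set beside them. Within the 8 libraries the group mean at 0.2 and 0.5 EC50 was below control, and 0.1 EC50 was not between control and 0.2 EC50. With 1 library at 0.1 EC50 there, dose and library cannot be told apart.

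The largest falls at 0.5 EC50 were in contigs of low to moderate level. TRINITY_DN2512_c0_g2_i1_3 had 11.6, 8.83 and 10.6 FPKM in the controls, 4.20, 5.77 and 10.1 at 0.1 EC50, 5.13, 3.72 and 4.25 at 0.2 EC50 and 1.22, 1.72 and 1.14 at 0.5 EC50. The 0.5 EC50 libraries were below all others, 0.1 EC50 replicate 3 was within the controls and replicate 1 within the 0.2 EC50 libraries. Its difference from control at 0.5 EC50 was 2.34 ± 0.262 log2 units (SE, from the spread within the 4 groups of 3), and it stood at 12.0% of control in scaled FPKM. Without a further step at the end, TRINITY_DN593_c0_g2_i3_3 had 8.33, 15.2 and 15.7 FPKM in the controls, 3.02, 4.71 and 12.8 at 0.1 EC50, 1.05, 1.92 and 3.29 at 0.2 EC50 and 1.15, 1.57 and 3.48 at 0.5 EC50. The values at 0.2 and 0.5 EC50 overlapped throughout, and 0.1 EC50 replicate 3 lay among the controls. Its differences from control were 0.90, 2.22 and 2.31 ± 0.519 log2 units (SE) in order of dose, so 3.80% of the fall lay in the last step.

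The 2 most abundant contigs of the group fell by 1.03 and 1.38 log2 units, on either side of the group median of 1.15. TRINITY_DN1926_c0_g1_i1_3 had 163, 160.1 and 191 FPKM in the controls, 103, 124 and 147 at 0.1 EC50, 89.9, 91.9 and 77.4 at 0.2 EC50 and 67.2, 101.2 and 109.6 at 0.5 EC50. All exposed libraries were below the controls, and 0.2 and 0.5 EC50 overlapped. As deposited its mean was higher at 0.5 EC50 (92.7 ± 22.5 FPKM) than at 0.2 EC50 (86.4 ± 7.85 FPKM; SD, n = 3), and the order of these doses came with the scaling, which put the last step at 0.04 log2 units. TRINITY_DN4102_c0_g1_i1_4 had 132, 117 and 109 FPKM in the controls, 70.6, 111 and 150.5 at 0.1 EC50, 97.7, 77.3 and 97.4 at 0.2 EC50 and 25.7, 66.6 and 70.4 at 0.5 EC50. The 0.1 EC50 libraries spanned from the upper 0.5 EC50 values to above all controls. The mean at 0.1 EC50 was 111 ± 39.9 FPKM against 119.5 ± 11.5 FPKM in control (SD, n = 3), a difference of 0.06 ± 0.399 log2 units (SE) that was smaller than the spread, and at 0.5 EC50 the difference was 1.38 log2 units.

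The contigs whose smallest step was the largest, headed most even steps in the plot, were of low to moderate level. TRINITY_DN2306_c0_g2_i2_1 had 8.31, 8.40 and 9.35 FPKM in the controls, 5.09, 4.63 and 6.05 at 0.1 EC50, 4.55, 3.64 and 2.88 at 0.2 EC50 and 1.82, 2.16 and 2.36 at 0.5 EC50. No group overlapped with the next, and the steps were 0.54, 0.54 and 0.65 log2 units with an SE of 0.137 each. It was called lower than control at every dose by limma. TRINITY_DN3454_c1_g2_i1_1 had the largest smallest step of the group, 0.57 log2 units, and a wider spread. It had 22.4, 17.7 and 15.2 FPKM in the controls, 5.10, 13.3 and 18.8 at 0.1 EC50, 7.00, 6.75 and 9.16 at 0.2 EC50 and 1.501, 5.52 and 7.25 at 0.5 EC50. Its 0.1 EC50 libraries reached from below all 0.2 EC50 libraries into the controls, so its steps in the means (SE 0.531 each) were not seen in single libraries.

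The other contigs with no overlap at any step were TRINITY_DN2349_c0_g1_i2_1 and TRINITY_DN849_c0_g1_i15_1, named here after their values were seen. The first had 23.0, 19.1 and 31.3 FPKM in the controls, 13.3, 15.04 and 15.5 at 0.1 EC50, 11.8, 12.3 and 12.9 at 0.2 EC50 and 10.4, 5.02 and 7.33 at 0.5 EC50. The second had 44.3, 38.6 and 48.1 FPKM in the controls, 25.1, 26.1 and 29.7 at 0.1 EC50, 25.6, 18.0 and 25.8 at 0.2 EC50 and 16.6, 16.0 and 20.3 at 0.5 EC50. As deposited its 0.1 and 0.2 EC50 values overlapped, and they separated after scaling. The 4 contigs called at 0.1 EC50 were TRINITY_DN2306_c0_g2_i2_1, TRINITY_DN849_c0_g1_i15_1, TRINITY_DN3047_c0_g1_i2_1 and TRINITY_DN365_c0_g2_i10_1, the last 3 also named after their values were seen. Differences from control at 0.1 EC50 were 0.54, 0.56, 0.40 and 0.57 log2 units in that order, and their names all end in 1.

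In the contigs with the latest falls, most of the difference lay above 0.2 EC50. TRINITY_DN7218_c0_g1_i1_2 had 23.2, 18.8 and 18.0 FPKM in the controls, 13.7, 15.2 and 29.4 at 0.1 EC50, 18.5, 10.3 and 16.9 at 0.2 EC50 and 4.58, 5.63 and 6.79 at 0.5 EC50. The 0.5 EC50 libraries were below all others, and the other groups overlapped. Its difference from control was 0.00422 log2 units at 0.1 EC50 and 1.78 ± 0.305 (SE) at 0.5 EC50, with 76.0% of the fall in the last step. TRINITY_DN2114_c0_g1_i2_1 had 51.8, 40.7 and 74.0 FPKM in the controls, 52.6, 41.0 and 45.5 at 0.1 EC50, 47.0, 33.4 and 44.0 at 0.2 EC50 and 34.3, 14.6 and 17.2 at 0.5 EC50. All 0.1 EC50 libraries lay within the range of the controls, and 0.2 EC50 replicate 2 lay below it. As deposited 0.5 EC50 replicate 1 was above that library, and after scaling it was below it (5.05 against 5.14 log2 units). Its difference was 0.10 at 0.1 EC50 and 1.47 ± 0.322 log2 units (SE) at 0.5 EC50.

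**Figure D4:**
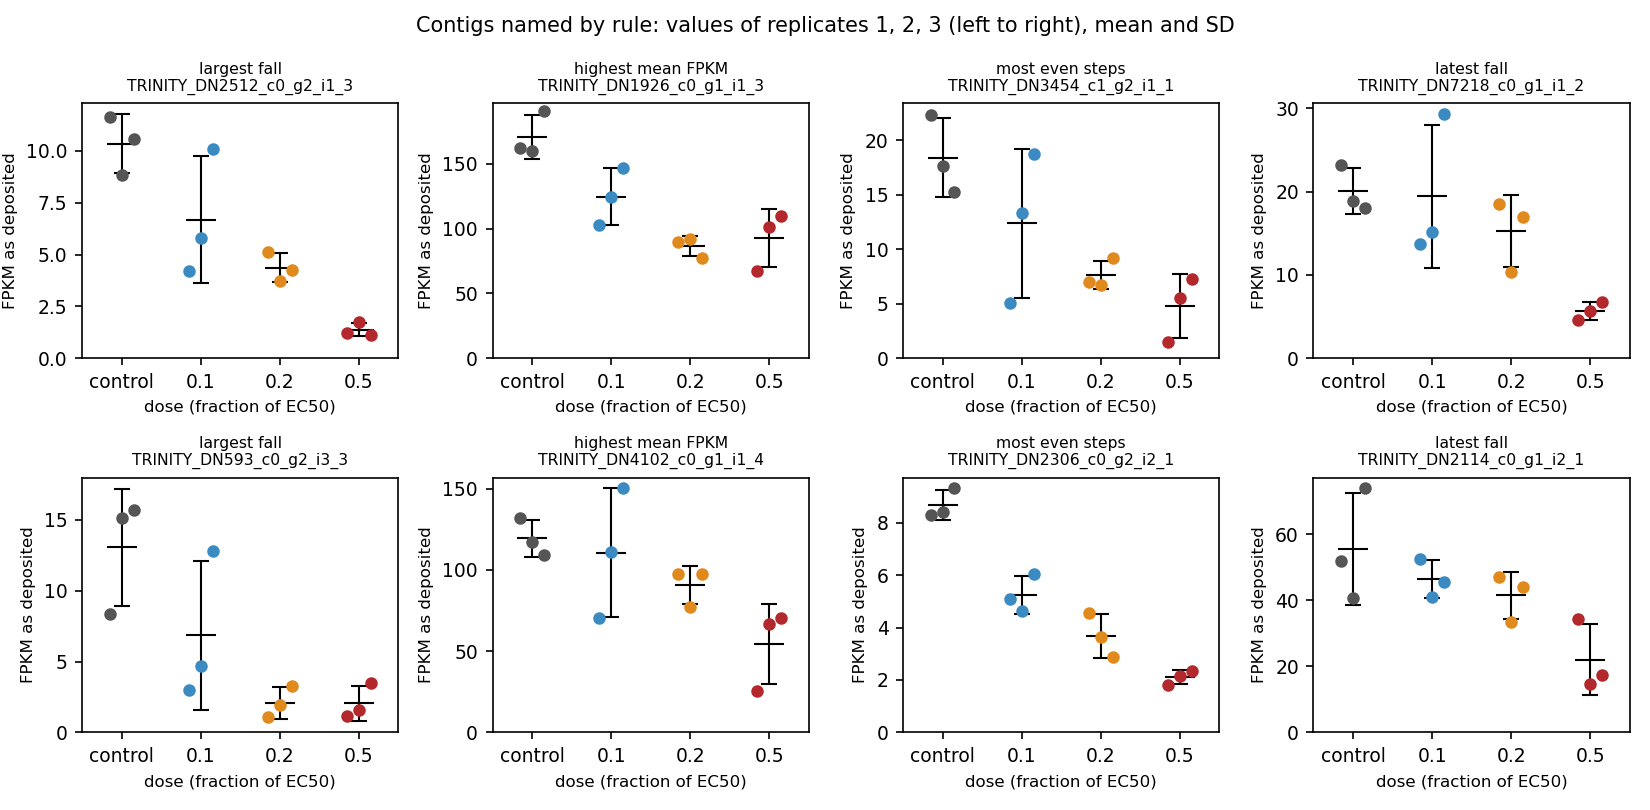
FPKM as deposited of 8 contigs, 2 each with the largest fall, the highest mean level, the largest smallest step (headed most even steps) and the latest fall. Dots are replicates 1, 2 and 3 from left to right, horizontal bars are means and whiskers the SD (n = 3), and each vertical axis starts at 0. Replicate 1 is the lowest and replicate 3 the highest 0.1 EC50 dot in every panel except those of TRINITY_DN2306_c0_g2_i2_1, which steps down without overlap, and TRINITY_DN2114_c0_g1_i2_1.

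The names of the 119 contigs held few links. They carried 118 different Trinity gene names, the assembler's groups of related contigs, and TRINITY_DN2114_c0_g1_i2_1 shared its name, apart from the last number, with TRINITY_DN2114_c0_g1_i2_4. The latter had 90.3, 77.9 and 86.1 FPKM in the controls, 49.0, 58.3 and 75.6 at 0.1 EC50, 67.3, 52.7 and 55.6 at 0.2 EC50 and 39.7, 50.6 and 53.1 at 0.5 EC50. A shared name did not go with a shared pattern elsewhere in the table: 1104 pairs of contigs with the same name and different last numbers had a median correlation of 0.00119 over the 12 libraries. Another 55 tested contigs carried the Trinity gene name of a falling contig, of which 27 stood lower at 0.5 EC50 than in control and 1 by at least 0.8 log2 units. No pair of tested contigs shared both the Trinity gene name and the last number, and the sources used here do not say whether a name shared under different last numbers means 1 gene.

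The last number of the name, from 1 to 4, is not explained in the sources used here, and contigs were spread unevenly over it. Of the tested contigs with names ending in 1, 2, 3 and 4, 35 of 2715, 26 of 2081, 39 of 3029 and 19 of 3695 were among the 119. These are 1.29%, 1.25%, 1.29% and 0.514%, so names ending in 4 were the least represented. The spread at 0.1 EC50 was present under each number: the median difference from control lay between -0.92 and -0.67 in replicate 1 and between 0.04 and 0.22 in replicate 3. Over the whole table, contigs ending in 1 were most often above 0 in 0.5 EC50 replicate 1 (95.7%), those ending in 2 in 0.2 EC50 replicate 3 (98.6%), those ending in 3 in control replicate 2 (91.8%) and those ending in 4 in 0.5 EC50 replicate 3 (99.2%). The part of the last number in the falls was not tested.

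The 119 contigs were a part of those lower at the highest dose. In all, 491 contigs had a fall of at least 0.8 log2 units at 0.5 EC50, and 387 of these did so without overlap with control. Their group means were not in order of dose for 216, the ordered fall had not reached 0.4 at 0.2 EC50 for 19, and at least 0.5 of it lay before 0.1 EC50 for 33. The limits cut through a continuous range. The contigs nearest to the limit of 0.8 had falls of 0.812 and 0.813 inside and 0.7996 and 0.792 outside it, and 23 lay within 0.05 of it. Beside the limit of 0.4 the nearest values were 0.405 and 0.409 inside and 0.394 and 0.392 outside. At the limit on the first step the shares were 0.494 and 0.489 inside and 0.505 and 0.506 outside. The least abundant members had means of 2.00 and 2.06 FPKM, and the nearest contigs left out for their level had 1.92 and 1.90 FPKM. The smallest gaps between the lowest control and the highest 0.5 EC50 library were 0.0816 and 0.0936 log2 units inside and -0.0167 and -0.0360 outside.

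**Figure D5:**
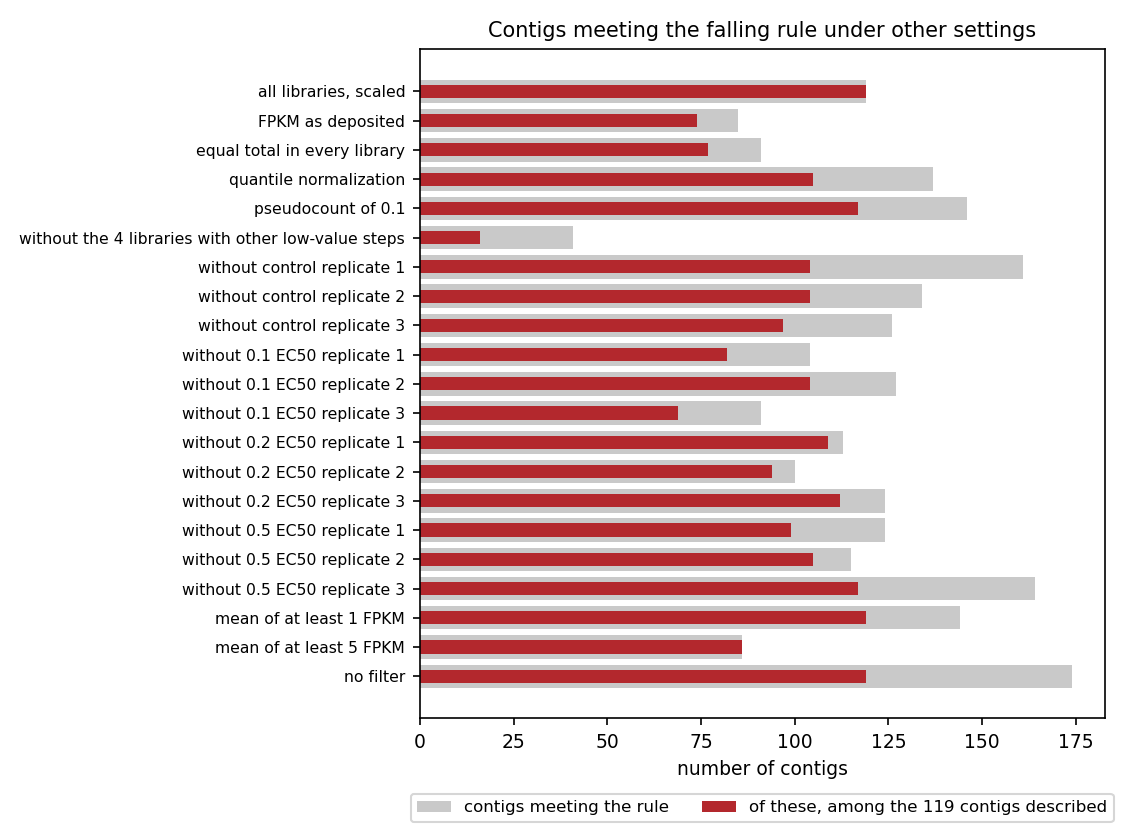
Grey bars give the number of contigs that met the rule under each setting, and red bars how many of them are among the 119 described, both on an axis that starts at 0. Leaving out a single library gave 91 to 164 contigs, and leaving out the 4 libraries with other low-value steps gave 41, of which 16 were among the 119.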

How the data were processed

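The authors deposited 1 table of FPKM values for 29140 contigs in 12 libraries, with names in the pattern of the Trinity assembler. Libraries were made from total RNA with Illumina TruSeq chemistry, per the labels' protocols. Neither aligner nor abundance estimator is given in the sources used here, and the unit is taken from the name of the deposited table. The smallest positive value is 2.26e-146 FPKM, so the values are estimates, and depth and counting error are unknown.

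From these, log2(scaled FPKM + 1) was computed after median-of-ratios scaling, and the rule was applied to contigs averaging 2 FPKM or more. The pseudocount understates changes of low contigs. The 11520 contigs were tested with limma (version 3.58.1, R 4.3.3), using 1 fit for the 4 groups and a prior variance that follows mean level, and the procedure was checked on simulated data. Its p-values measure only spread among these libraries, possibly technical. Python 3.11.15 and matplotlib 3.10.9 made the figures. The dose in a library's title gave its group. Contigs were named by rule, 2 each for largest fall, highest mean FPKM, largest smallest step and largest share of the fall after 0.2 EC50. The contigs, the rule, the tests and the libraries to leave out were chosen with earlier results of these data known. Low-value steps were sought in log2 ratios within 0.5, in bins of 0.01, for values between 0.01 and 1 FPKM. Deviations of same-numbered libraries from their group means correlated between -0.289 and 0.339. Between 0.1 and 0.2 EC50 all 3 pairs were above 0.1 (0.245, 0.272 and 0.339), so replicate numbers were taken to pair these groups, from the data and not from the labels. In every other comparison at least 1 pair was below 0.1, and the numbers were not taken to pair the samples.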

Additional observations from a re-analysis of the deposited data

How the results depend on the processing

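The number of contigs meeting the rule was 119 and ranged from 91 (without 0.1 EC50 replicate 3) to 164 (without 0.5 EC50 replicate 3) when 1 library was left out. Leaving out the 4 libraries whose low values stepped differently gave 41, 16 of them among the 119, which are 39.0% of that list and 13.4% of the 119. That alternative leaves 1 library at 0.1 EC50, so dose and library cannot be told apart there. Its counts of calls are listed below with the other settings, and nothing is read from them. As deposited, 85 contigs met the rule and 156 the mirrored rule, against 119 and 96 after scaling. The median difference from control, for the same 119 contigs, was 1.08 to 1.25 at 0.5 EC50, 0.637 to 0.726 at 0.2 EC50 and 0.0870 to 0.556 at 0.1 EC50 when 1 library was left out. The lowest value at 0.1 EC50 came without replicate 1 of that dose and the highest without replicate 3. It was 0.802 at 0.1 EC50 without the 4 libraries, and 1.32 at 0.5 EC50 with a pseudocount of 0.1.

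Counts called lower by limma, with 1 library left out, were 47 to 104 at 0.5 EC50, 14 to 51 at 0.2 EC50, 0 to 18 at 0.1 EC50, 2 to 16 between 0.5 and 0.2 EC50 and 0 to 0 between 0.2 and 0.1 EC50. Against control at 0.2 EC50 the count was 22 without a filter, 56 with the compared groups only and 13 without the 4 libraries. At 0.1 EC50 these gave 2, 2 and 9. Between 0.5 and 0.2 EC50 it was 6 as deposited and with equal totals, 17 after quantile normalization, 4 without a filter and 5 with the compared groups only. The replicate block gave 106 at 0.5 EC50, 50 at 0.2 EC50, 8 at 0.1 EC50 and 22 between 0.5 and 0.2 EC50. Between 0.2 and 0.1 EC50, where the numbers paired the libraries, it gave 0, as without the block. The block was fitted over all groups, also those not taken to be paired, and no fit paired 0.1 and 0.2 EC50 alone. The difference at 0.1 EC50 changed sign for 3 named contigs when 1 library was left out, with ranges of -0.214 to 0.324 for TRINITY_DN7218_c0_g1_i1_2, -0.251 to 0.303 for TRINITY_DN4102_c0_g1_i1_4 and -0.0938 to 0.272 for TRINITY_DN2114_c0_g1_i2_1. The counts of largest steps under these settings were added after seeing the data. The causes were not tested. With depth unknown, no limit from counting can be given.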
